A study of Mus musculus with 90 samples.

Results

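The 3 melanomas of study 3 labelled as stabilized under PD-L1 blockade were set against the 8 study 3 melanomas from mice given a control antibody, 11 of the 90 tumours in the series. Members were taken by their sample labels alone. Every tumour was a subcutaneous allograft of strain B6.cBrd with the genotype Hgftg;Cdk4R24C/R24C, so controls carried the Hgf transgene and the Cdk4 R24C alleles too. Stabilized tumours received anti-mouse PD-L1, a mouse IgG1 with the D265A change, at 10 mg/kg. The controls received normal mouse IgG at 10 mg/kg, which the series text gives as IgG1 D265A. Per that text, stabilized tumours belong to the responders, which shrank by at least 5%, and held their volume over 2 consecutive measurements. Treated tumours were taken after 2 to 12 doses and controls at several times, and neither the doses nor the day of a single tumour is given in the sources used here. Nor are the promoter of the transgene and the number of donor tumours behind the allografts. The stabilized tumours share 1 block of animal numbers with the study 3 responders (10) and non-responders (9). The IgG tumours carry another block, so treatment and a possible cohort difference cannot be told apart. RNA came from whole tumour tissue, in which fewer cells of a type and less RNA per cell cannot be told apart.

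PD-L1, encoded by Cd274, is displayed by tumour and myeloid cells and restrains T cells through the receptor PD-1, encoded by Pdcd1. Antibodies against PD-L1 release that restraint, and tumours that respond usually hold more T cells and macrophages and fewer tumour cells. Tissue that is being cleared also makes chemokines, which call in leukocytes, and matrix metalloproteinases (MMPs), which cut collagen and other matrix proteins. Many MMP genes are driven by AP-1 (Jun and Fos family proteins) and many chemokine genes by NF-kB.

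The MMP and chemokine lists were searched because several MMP genes and the chemokine gene Cxcl2 had some of the largest rises. The upstream bases shown are those of the 6 list members that held the letters given below, whatever the size of their rise. Mmp10 held the same letters as its neighbours though it was high mainly in replicate 1. For Cxcl1 the result depended on the probe set, as described with the results. Each line gives the 120 bases before the annotated start, 5′ to 3′, from RefSeq (GRCm38.p6). Capitals mark the letters TGANTCA, an AP-1 consensus, in the 4 MMP genes and an NF-kB consensus (GGG, any 2 bases, then TTTCC) in the 2 chemokine genes, on either strand.
Mmp13, chr9:7272394-7272513, plus strand: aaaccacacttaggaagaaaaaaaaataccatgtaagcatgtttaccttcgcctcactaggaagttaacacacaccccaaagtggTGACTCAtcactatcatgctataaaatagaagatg
Mmp12, chr9:7347254-7347373, plus strand: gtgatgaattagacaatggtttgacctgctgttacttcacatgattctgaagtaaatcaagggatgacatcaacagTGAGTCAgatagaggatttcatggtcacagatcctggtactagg
Mmp3, chr9:7445702-7445821, plus strand: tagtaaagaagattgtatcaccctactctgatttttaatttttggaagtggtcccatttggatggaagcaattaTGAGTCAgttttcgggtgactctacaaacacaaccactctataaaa
Mmp10, chr9:7502222-7502341, plus strand: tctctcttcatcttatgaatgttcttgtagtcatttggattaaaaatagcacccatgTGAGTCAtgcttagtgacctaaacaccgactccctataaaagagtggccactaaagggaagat
Cxcl1, chr5:90891125-90891244, plus strand: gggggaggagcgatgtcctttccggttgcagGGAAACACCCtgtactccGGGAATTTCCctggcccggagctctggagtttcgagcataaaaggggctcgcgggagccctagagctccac
Cxcl2, chr5:90903779-90903898, plus strand: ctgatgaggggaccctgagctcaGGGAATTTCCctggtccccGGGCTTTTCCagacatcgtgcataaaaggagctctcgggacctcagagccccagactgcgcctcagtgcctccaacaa
The 4 MMP genes lie in 1 cluster on chromosome 9, with the match beginning 35 bases before the start in Mmp13, 44 in Mmp12, 46 in Mmp3 and 63 in Mmp10. For Mmp12 this is the later of 2 annotated starts, and the window of the earlier start held no match. Of the 13 measured members of the MMP and inhibitor list, 10 had a promoter window of 300 bases (250 before to 50 after the start), and 4 held TGANTCA against 7.81% of all 32851 windows. Of the 15 measured chemokine list members 9 had a window, and 2 held the NF-kB letters against 1.63% of all windows. Both matches lie 89 and 71 bases before the start in Cxcl1 and 97 and 78 in Cxcl2. Members whose window held no match rose too, among them Timp1, Adamts12, Mmp14, Ccl3 and Cxcl12. A match describes letters in the window and not a bound site.

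The 3 stabilized tumours were unlike each other. All array values are on the log2 scale, and 1 probe set stands for each of 18194 genes. Over all genes, replicate 1 correlated with the 8 IgG tumours at a median of 0.913, replicate 2 at 0.954 and replicate 3 at 0.991, against 0.989 between IgG pairs. Replicate 1 lay at least 1 (2-fold) above the highest IgG tumour in 1364 genes and at least 1 below the lowest in 1211. Replicate 2 did so in 857 and 223 genes and replicate 3 in 18 and 1. An IgG tumour set against the other 7 did so in 0 to 58 and 0 to 29 genes. The difference between 3′ and 5′ control probe sets, a sign of RNA quality, was 0.08, 0.22 and 0.13 in replicates 1, 2 and 3, inside the IgG range of -0.07 to 0.41. Array medians were 5.81 to 5.87 against 5.78 to 5.84.

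In limma's fit of all 90 arrays, 1940 genes were higher in stabilized than in IgG tumours at an adjusted p under 0.05 (10.7% of genes tested) and 2099 were lower (11.5%). By at least 2-fold, 997 of these were higher and 503 lower. Most calls rested on replicate 1: it was the highest of the 3 in 1581 of the 1940 higher genes and the lowest in 1923 of the 2099 lower genes. Without it limma called 1 gene, with 1903 at an unadjusted p under 0.05. That gene, named after its values were seen, was Nim1k, a kinase (0.93 ± 0.15 on the log2 scale, SE, n = 2 and 8, adjusted p = 0.000543). Nim1k stood at 3.57, 4.63 and 2.88 in replicates 1, 2 and 3, highest in replicate 2. These values are near the floor of the arrays, whose lowest value was 2.19. Of the 4039 calls, 4036 kept their sign without replicate 1, and the median difference of the higher genes went from 1.02 to 0.66 and of the lower from -0.71 to -0.42. Without replicate 2, 797 and 714 genes were called, and without replicate 3, 2786 and 3450. In a fit of these 2 groups alone, 1405 genes were higher and 1026 lower. After centring each array on its median the split was 1654 and 2642. So a call below describes the mean of 3 unlike tumours. The 3 values are given beside many calls but not all, and a call without them need not be shared by the 3. All lists below had 0 members called without replicate 1. Counts of list members called are to be read against the 10.7% higher and 11.5% lower over all genes.

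**Figure D1:**
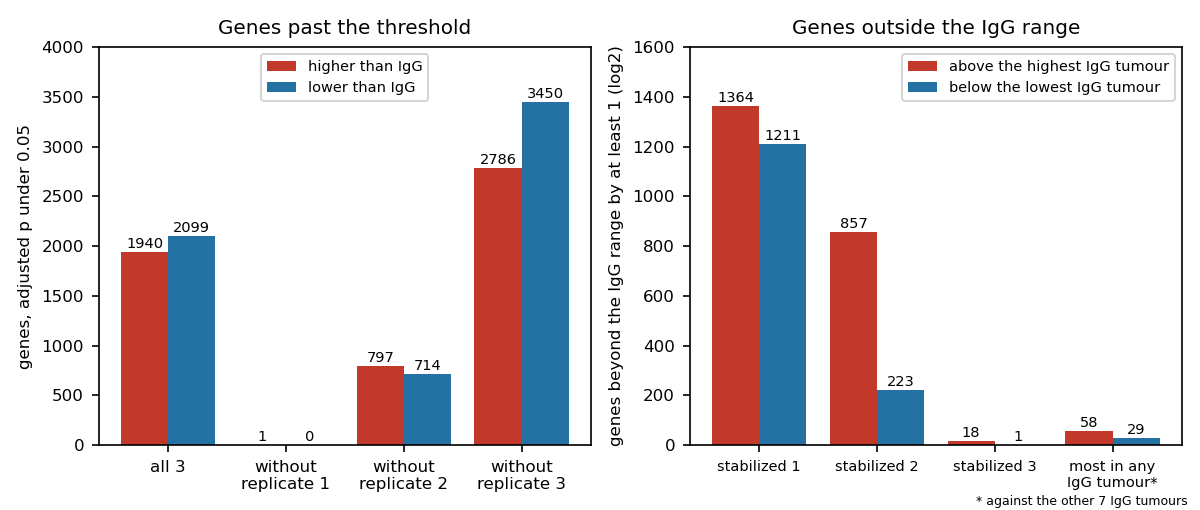
Left, genes past an adjusted p of 0.05 against the 8 IgG tumours with all 3 stabilized tumours and with each left out. Right, genes in which each stabilized tumour lay at least 1 (log2) outside the range of the 8 IgG tumours, with the most seen in any IgG tumour against the other 7. Leaving out replicate 1 takes the counts from 1940 and 2099 to 1 and 0, and replicate 3 lies outside the IgG range in 18 and 1 genes.

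A smaller set of genes set all 3 stabilized tumours apart, whatever their overall likeness to controls. All 3 lay above the highest of the 8 IgG tumours in 579 genes (3.18% of genes tested) and below the lowest in 354 (1.95%). Of the called genes, 465 of the higher (24.0%) and 241 of the lower (11.5%) did so. Counts of list members without overlap are to be read against the 3.18% and 1.95% over all genes. In 7 genes every stabilized tumour exceeded every IgG tumour by at least 1. They were chosen after their values were seen: Abi3bp, Mmp13, Clec4e, Saa3, Upp1, Mmp12 and AA467197. Clec4e, a myeloid receptor for damaged cells and microbes, stood at 10.03, 9.59 and 8.74 in replicates 1, 2 and 3 against 6.23 to 7.63 in IgG tumours. Upp1, uridine phosphorylase, was nearly level across the 3, at 8.18, 8.31 and 8.29, against 6.70 to 7.15. Saa3, an acute phase protein, stood at 12.18, 11.46 and 11.29 against 8.16 to 10.20.

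Chemokine genes were among the most shared. Of the 15 measured, 9 rose and 0 fell, the list's median difference was 1.52 against -0.03 over all genes, and in 8 all 3 stabilized tumours lay above every IgG tumour. Without replicate 2, 3 were called. Cxcl2, a ligand of the neutrophil receptor CXCR2, stood at 10.89, 8.68 and 9.90, against 5.44, 6.27 and 8.35 (lowest, median and highest) in the IgG tumours. The groups did not overlap, and the mean difference was 3.38 ± 0.84 (10.4-fold, adjusted p = 0.00370, exact permutation p = 0.00606, the smallest that 11 tumours allow). That permutation p follows largely from the lack of overlap, for which Cxcl2 was also picked, and adds little to it. Without replicate 1 the mean difference was 2.84 ± 0.98 (adjusted p = 0.409). Cxcl5, another CXCR2 ligand, was far higher in replicate 1, with 8.92, 6.02 and 5.75 against 3.10 to 4.89 (3.21 ± 0.71, adjusted p = 0.00189). Cxcl1, whose promoter letters resemble those of Cxcl2, did not pass on its brightest probe set (0.15 ± 0.17, adjusted p = 0.570). In limma's fit of every probe set on its own, its other 2 probe sets were higher, by 1.15 and 1.53 (adjusted p = 0.0427 and 0.043). Of the chemokines that macrophages and T cells release, Ccl3 and Ccl4 were highest in replicate 2. Ccl3 stood at 8.52, 9.84 and 7.73 against 5.85 to 7.07 (2.27 ± 0.54, adjusted p = 0.00292), and Ccl4 at 8.98, 10.51 and 8.55 against 7.54 to 8.27 (1.56 ± 0.38, adjusted p = 0.00320). The monocyte chemokine Ccl2 rose by 1.34 ± 0.41 (adjusted p = 0.0136), again with no overlap. Ccl7 (1.20 ± 0.49, adjusted p = 0.0636) and Ccl8 (1.52 ± 0.64, adjusted p = 0.0762) did not pass, though every stabilized tumour lay above every IgG tumour in both. Cxcl12, made by stromal cells, rose by 2.72 ± 0.98 on its brightest probe set (adjusted p = 0.0362), and 1 of its 3 probe sets differed by -0.15.

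Among the immune cell lists, the neutrophil list alone had a higher mean in replicate 3 than in replicate 2. Of 12 measured genes 7 rose and 0 fell (6 without replicate 2), and in 5 all 3 tumours lay above every IgG tumour. The list mean was 6.84, 6.09 and 6.30 in replicates 1, 2 and 3 against 5.14 to 5.60. S100a8, a subunit of the calprotectin that fills neutrophils, stood at 10.69, 8.75 and 10.45 against 5.48, 7.40 and 8.11 (3.02 ± 0.91, adjusted p = 0.0124, and 2.66 ± 1.06 without replicate 1). Its partner S100a9 stood at 10.79, 8.53 and 10.44 against 5.20 to 8.54, so replicate 2 lay just inside the IgG range (3.10 ± 0.85, adjusted p = 0.00725). Csf3r, the receptor for the neutrophil growth factor, stood at 7.87, 7.76 and 6.37 against 5.90 to 6.31 (1.19 ± 0.32, adjusted p = 0.00657). Mmp8, neutrophil collagenase, rose by 1.34 ± 0.27 (adjusted p = 0.00117). Camp, an antimicrobial peptide of neutrophil granules, was highest in replicate 3 (7.03, against 5.78 and 5.73 in replicates 1 and 2). It rose by 0.61 ± 0.20 (adjusted p = 0.0180). The inflammatory genes Il1b and Ptgs2, chosen after their values were seen, showed the same order of tumours. Il1b, the interleukin 1 beta precursor, stood at 8.76, 7.10 and 7.81 against 5.95 to 6.53. Ptgs2, which makes prostaglandins, stood at 10.15, 6.88 and 8.32 against 4.86 to 7.03.

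**Figure D2:**
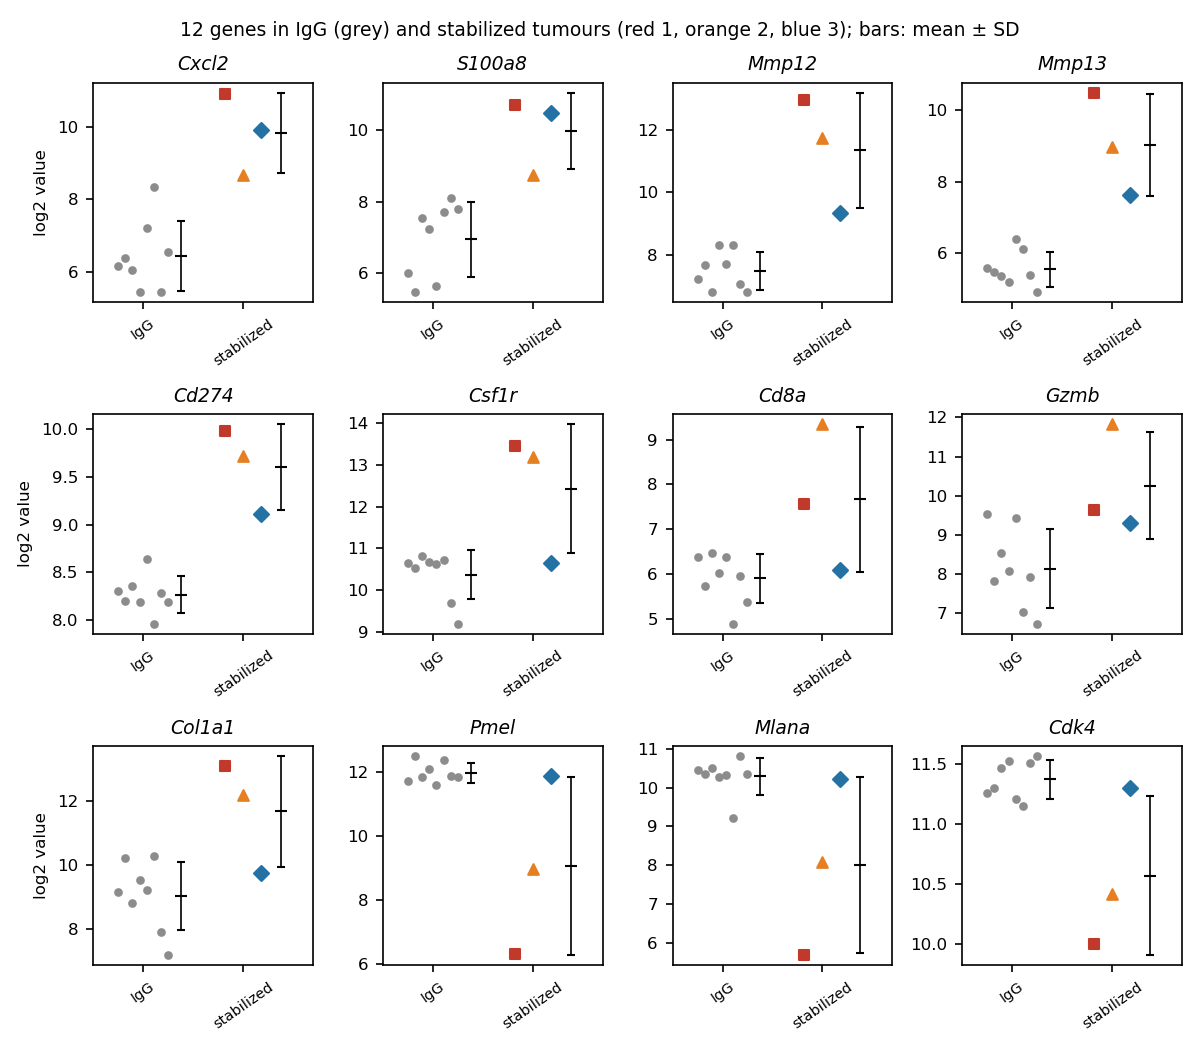
Log2 values of 12 genes in the 8 IgG tumours (grey points) and the 3 stabilized tumours (red square, replicate 1; orange triangle, replicate 2; blue diamond, replicate 3), with the mean and SD of each group. Cxcl2, S100a8, Mmp12, Mmp13 and Cd274 separate the groups, while for Csf1r, Cd8a, Gzmb, Col1a1, Pmel, Mlana and Cdk4 the blue diamond lies among the IgG tumours.

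Matrix metalloproteinases were among the largest rises. Of 13 measured MMP and inhibitor genes 11 rose and 0 fell (10 without replicate 2), with a median difference of 1.46, and in 5 the groups did not overlap. Mmp12, macrophage elastase, had the largest rise of any gene called. It stood at 12.93, 11.74 and 9.32 against 6.80, 7.45 and 8.30 in IgG tumours, so even replicate 3 lay above every control. The difference was 3.85 ± 0.82 (14.4-fold, adjusted p = 0.00153), and 3.05 ± 0.95 without replicate 1. Mmp13, a collagenase, stood at 10.47, 8.96 and 7.62 against 4.92, 5.43 and 6.41 (3.46 ± 0.66, adjusted p = 0.000788). Mmp3, stromelysin 1, stood at 12.40, 9.88 and 9.26 against 5.03, 7.58 and 8.92 (3.16 ± 0.88, adjusted p = 0.00763). The IgG tumours ranged widely for Mmp3, and the gap between the groups was small. Mmp10, stromelysin 2, the fourth of the genes shown above, differed in pattern: 8.81 in replicate 1, and 6.03 and 5.78 in the others against 5.31 to 5.95. Its difference of 1.37 ± 0.23 (adjusted p = 0.000158) became 0.41 ± 0.17 without replicate 1. Mmp9, a gelatinase of myeloid cells, stood at 7.71, 6.74 and 5.73 against a narrow 5.11 to 5.32 (1.49 ± 0.37, adjusted p = 0.00405). Mmp19 rose by 1.46 ± 0.32 and Mmp14, a membrane-bound collagenase, by 1.10 ± 0.32, the latter with replicate 3 (9.95) at the IgG median. Mmp2, the gelatinase of fibroblasts, did not pass (0.43 ± 0.33, adjusted p = 0.384). The inhibitor Timp1 rose as well, by 2.25 ± 0.54 (4.75-fold, adjusted p = 0.00327).

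Most wound and TGF beta genes rose, some with all 3 tumours above the controls and some mainly through replicate 1. Of 16 measured 13 rose and 0 fell (9 without replicate 2), and in 5 all 3 tumours lay above every IgG tumour. Tnc, tenascin C, a matrix protein of healing tissue, stood at 12.46, 9.81 and 9.46 against 5.72, 7.03 and 9.11 (3.47 ± 0.84, 11.1-fold, adjusted p = 0.00335). Cthrc1, a secreted protein of activated fibroblasts, stood at 11.21, 9.03 and 9.52 against 6.63 to 8.57 (2.62 ± 0.82, adjusted p = 0.0153). Ltbp2, which binds the matrix, stood at 9.37, 8.17 and 7.17 against 5.33 to 6.65 (2.32 ± 0.69, adjusted p = 0.0114). Tgfb1, the ligand itself, rose by 1.56 ± 0.45 (adjusted p = 0.00922), with replicate 3 (7.05) inside the IgG range.

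Others were far higher in replicate 1. Inhba, the subunit of activin A, stood at 10.46 there against 6.30 and 6.85 in the others, all 3 above the 5.01 to 5.97 of the IgG tumours (2.33 ± 0.38, adjusted p = 9.95e-05, and 1.04 ± 0.35 without replicate 1). Of its 2 probe sets 1 rose. Il11, a cytokine of wounded tissue, stood at 8.95, 5.10 and 5.95 against 5.15 to 5.72. Replicate 2 lay below every IgG tumour. The difference of 1.18 ± 0.26 (adjusted p = 0.00184, exact permutation p = 0.127) was 0.04 ± 0.18 without replicate 1. Wnt5a, a secreted Wnt ligand, stood at 6.94, 4.25 and 3.92 against 3.66 to 4.61 (1.16 ± 0.24, adjusted p = 0.00117, and 0.20 ± 0.19 without replicate 1). Ereg, a ligand of the EGF receptor, and Ntn4, a netrin, were likewise high in replicate 1, at 7.86 and 9.68, by 3.60 and 3.49 over the highest of the other 10 tumours.

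**Figure D3:**
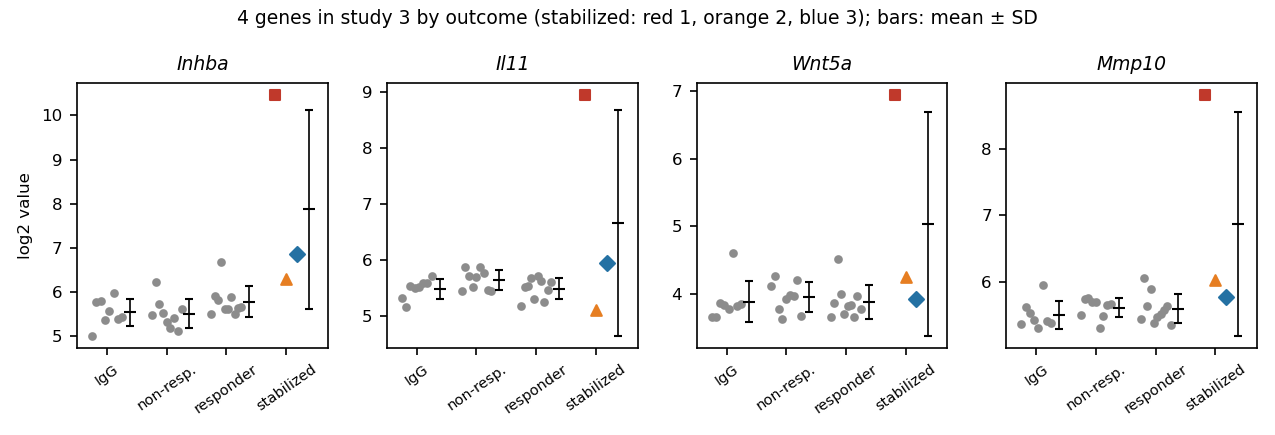
Log2 values of Inhba, Il11, Wnt5a and Mmp10 in study 3 tumours by outcome (grey points, IgG, non-responder and responder; coloured marks, stabilized replicates 1 to 3 as red square, orange triangle and blue diamond), with the mean and SD of each group. In all 4 genes stabilized replicate 1 lies far above every other tumour, and replicates 2 and 3 lie near the rest.

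Macrophage genes rose as a whole, mostly in replicates 1 and 2. All 17 measured passed (5 without replicate 2), with a median difference of 1.74. The list mean was 12.23, 11.83 and 10.18 against 9.24 to 10.26, so replicate 3 lay inside the IgG range. Csf1r, the receptor that keeps macrophages alive, stood at 13.44, 13.18 and 10.65 against 9.20, 10.64 and 10.83 (2.06 ± 0.64, adjusted p = 0.0157). Trem2, a lipid receptor of tissue macrophages, rose by 1.99 ± 0.43 (adjusted p = 0.00159), again with replicate 3 (8.54) inside the range of 8.05 to 8.74. The other Trem2 probe set differed by -0.15. Mertk, which clears dying cells, stood at 9.75, 10.14 and 7.81 against 7.26 to 7.78, just free of overlap (1.74 ± 0.36, adjusted p = 0.00130). Itgam, an integrin of monocytes and neutrophils, was also free of overlap (10.06, 8.89 and 7.41 against 5.78 to 7.29), as was Lyz2, lysozyme (13.81, 13.56 and 12.87 against 11.41 to 12.59). Cd14, a receptor for bacterial lipid, stood apart in replicate 1, at 12.65 against 9.66 and 9.26 in the others. Cd68 rose by 2.05 ± 0.55 and C1qa, of the complement C1 complex, by 1.45 ± 0.45. In both, replicate 3 lay inside the IgG range, at 9.47 and 11.53. Atp6v0d2, a proton pump subunit of osteoclasts and macrophages, was among the 10 largest rises, at 11.44, 9.65 and 5.95 against 5.04 to 6.79 (3.39 ± 0.64, 10.5-fold, adjusted p = 0.000747).

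T cell and cytotoxic genes peaked in replicate 2. Of 12 T cell genes 9 rose (1 without replicate 2) and of 18 cytotoxic lymphocyte genes 13 rose (0 without replicate 2), with none lower in either list. All 18 cytotoxic genes lay above every IgG tumour in replicate 2, 13 in replicate 1 and 2 in replicate 3, against 22.3%, 27.3% and 7.29% of all genes. Cd8a, of the coreceptor of killer T cells, stood at 7.57, 9.34 and 6.09 against 4.89, 5.99 and 6.46 (1.77 ± 0.53, 3.41-fold, adjusted p = 0.0121), and its partner Cd8b1 at 8.39, 10.79 and 6.47 against 5.70 to 7.45. Gzmb, granzyme B, stood at 9.64, 11.82 and 9.31 against 6.73 to 9.53 (2.12 ± 0.74, adjusted p = 0.0295). Gzmk, a granzyme of memory cells, stood at 9.53, 10.99 and 6.79 against 6.04 to 7.31 (2.50 ± 0.61, adjusted p = 0.00353). Ifng, interferon gamma, was lower in replicate 1 than in replicate 3, at 5.54, 8.43 and 6.44 against 3.91, 5.20 and 6.28 (1.72 ± 0.60, adjusted p = 0.0313). Cd3g, of the T cell receptor complex, rose by 2.66 ± 0.79 and Cxcr6, a chemokine receptor of T cells that settle in tissue, by 2.48 ± 0.75. In both, replicate 3 lay inside the IgG range, at 6.81 and 7.04. The probe set for Cd4 was dim and did not pass (0.25 ± 0.21, adjusted p = 0.424). Foxp3, which defines regulatory T cells, stood at 6.14, 5.78 and 6.08 against 5.74 to 6.19 (-0.01 ± 0.13, adjusted p = 0.956). Il7r, the interleukin 7 receptor, was among the 10 largest rises, at 11.99, 10.77 and 8.04 against 6.36, 6.88 and 7.42 (3.36 ± 0.64, 10.3-fold, adjusted p = 0.000747). Unlike Cd8a and Gzmk it was highest in replicate 1, and the cells that expressed it were not tested.

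The target of the antibody and several inhibitory receptors rose too. Of 12 measured 8 rose and 0 fell (4 and 0 without replicate 2, 11 and 1 without replicate 3), and in 3 the groups did not overlap. Cd274, which encodes PD-L1, stood at 9.98, 9.72 and 9.11 against 7.96, 8.24 and 8.64, and every stabilized tumour lay above every IgG tumour. The difference was 1.34 ± 0.29 (2.53-fold, adjusted p = 0.00159), and 1.15 ± 0.34 without replicate 1 (adjusted p = 0.409). Pdcd1, which encodes PD-1, peaked in replicate 2, at 6.38, 8.72 and 5.74 against 4.68 to 6.06 (1.56 ± 0.50, adjusted p = 0.0181). Ctla4, an inhibitory receptor of activated and regulatory T cells, stood at 6.82, 7.38 and 6.16 against 4.69 to 5.95 (1.46 ± 0.32, adjusted p = 0.00159). Its difference was nearly the same without replicate 1 (1.45 ± 0.37). Havcr2, which encodes TIM-3, stood at 8.39, 8.31 and 5.77 against 4.48 to 6.22 (2.30 ± 0.48, 4.94-fold, adjusted p = 0.00139). Lag3 did not pass (0.97 ± 0.40, adjusted p = 0.0690), with 8.26 in replicate 2 and 6.10 and 5.78 in the others.

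Of the interferon and MHC lists, MHC class II had the largest share of members past the test, and MHC class I had none. Over all genes 10.7% were called higher and 11.5% lower. In the interferon gamma response list, 3 of 18 measured members rose and 1 fell, near those shares, with a median difference of 0.71. Members above every IgG tumour numbered 4, 13 and 8 in replicates 1, 2 and 3, against 27.3%, 22.3% and 7.29% of all genes. Members below every IgG tumour numbered 5, 1 and 0. The list mean was lowest in replicate 1 (8.89, against 10.16 and 9.78 in the others and 8.15 to 9.61 in IgG tumours). Gbp8, a guanylate-binding protein, stood at 8.04, 9.35 and 7.60 against 4.48, 6.18 and 7.50 (2.17 ± 0.75, adjusted p = 0.0283). Irf1, a transcription factor induced by interferon gamma (0.82 ± 0.33, adjusted p = 0.0636), and Cxcl9, a T cell chemokine (1.31 ± 0.65, adjusted p = 0.140), did not pass. Cxcl11, a related chemokine, was lower, at 6.69, 10.07 and 11.20 against 10.74 to 11.44 (-1.87 ± 0.53, adjusted p = 0.00818), and the difference was -0.56 ± 0.55 without replicate 1. Of 16 type I interferon genes 0 rose and 1 fell, Usp18, an enzyme that damps the response (8.08, 10.08 and 10.82 against 10.50 to 10.89, adjusted p = 0.00845). The 3 tumours went opposite ways, with list means of 8.30, 9.66 and 9.60 against 8.86 to 9.52 in IgG tumours. Members above every IgG tumour numbered 0, 8 and 5 in replicates 1, 2 and 3, and members below every one 11, 2 and 0. None of 10 MHC class I genes passed, with H2-K1 differing by 0.30 ± 0.15 (adjusted p = 0.145). The MHC class I list mean was 11.51, 12.10 and 11.73 against 10.89 to 11.83, so only replicate 2 lay above every IgG tumour. Members above every IgG tumour numbered 4, 7 and 2 in replicates 1, 2 and 3, and members below every one 2, 0 and 0. Of 9 MHC class II genes 5 rose (0 without replicate 2 and 7 without replicate 3). H2-Ab1 stood at 13.24, 12.79 and 11.23 against 9.20 to 11.84 (1.88 ± 0.62, adjusted p = 0.0211), and Cd74, the class II chaperone, rose by 1.85 ± 0.70 (adjusted p = 0.0461).

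**Figure D4:**
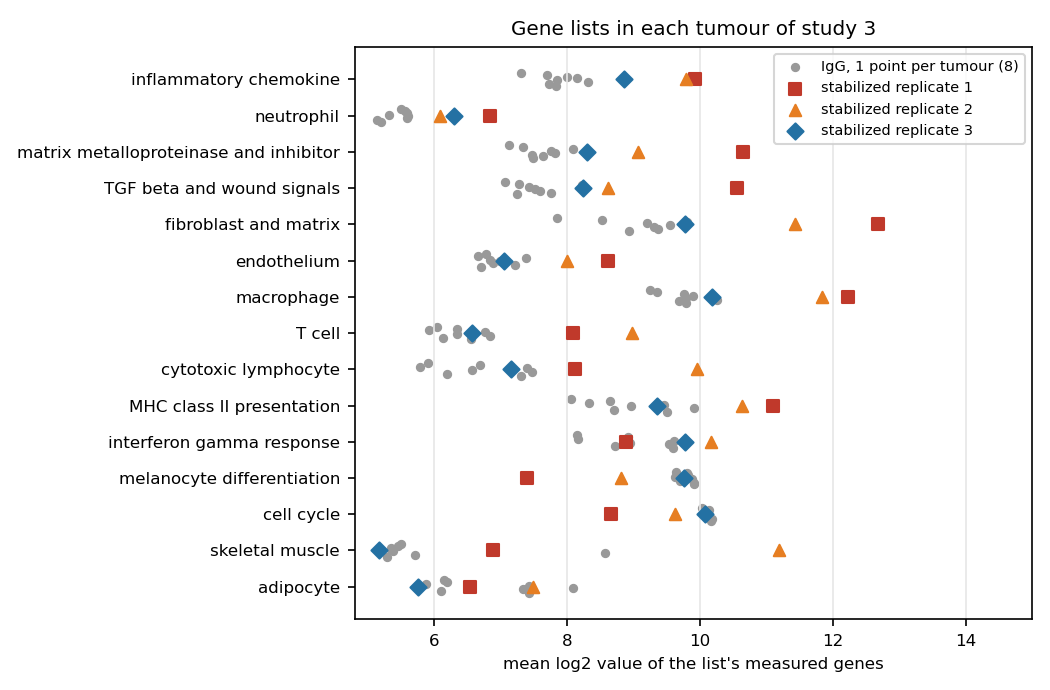
Mean log2 value of the measured genes of 15 lists in each IgG tumour (grey) and each stabilized tumour (red square, replicate 1; orange triangle, replicate 2; blue diamond, replicate 3). Replicate 3 lies above every IgG tumour for the chemokine, neutrophil, MMP, wound and interferon gamma lists and below every one for skeletal muscle and adipocyte. Replicates 1 and 2 lie below every IgG tumour for the melanocyte and cell cycle lists.

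Stromal genes rose most in replicate 1. Of 17 fibroblast and matrix genes 15 rose (2 without replicate 2), with a median difference of 2.29 and list means of 12.68, 11.43 and 9.78 against 7.85 to 9.80. Col1a1, a chain of type I collagen, stood at 13.12, 12.19 and 9.75 against 7.17, 9.18 and 10.29 (2.65 ± 0.91, 6.29-fold, adjusted p = 0.0268). Pdgfra, a growth factor receptor of fibroblasts, rose by 2.54 ± 0.74 (adjusted p = 0.0103). Thy1, found on fibroblasts and T cells, stood at 11.85, 10.99 and 8.57 against 6.86 to 8.31, with no overlap (2.64 ± 0.62, adjusted p = 0.00266). Postn, periostin, was also free of overlap (13.54, 12.58 and 11.32 against 8.59 to 10.98). Col3a1 did not pass (1.57 ± 0.76, adjusted p = 0.130), although all 3 tumours lay above every IgG tumour. Sfrp2, a secreted Wnt modulator, and Cpxm1, a carboxypeptidase-like matrix protein, were among the 10 largest rises, at 3.36 ± 1.12 and 3.16 ± 0.78. Of 14 endothelial genes 9 rose (0 without replicate 2), and for none were the groups apart. Pecam1 stood at 9.21, 8.61 and 7.01 against 5.60 to 7.48 (1.66 ± 0.48, adjusted p = 0.0103), and Cdh5, which joins endothelial cells, rose by 1.71 ± 0.48. For Cdh5, replicate 3 (6.81) lay inside the IgG range of 5.70 to 7.22.

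Pigment cell genes were lowest in replicate 1, less low in replicate 2 and inside the IgG range in replicate 3. Of 16 melanocyte differentiation genes 10 fell and 0 rose (6 without replicate 2), with a median difference of -1.15. The list mean was 7.39, 8.81 and 9.76 against a narrow 9.63 to 9.91 in IgG tumours. Pmel, a structural protein of the melanosome, had the largest fall of any gene called, at 6.31, 8.97 and 11.87 against 11.59, 11.85 and 12.50 (-2.93 ± 0.72, adjusted p = 0.00362, and -1.56 ± 0.80 without replicate 1). Mlana, a melanosome protein recognised by T cells, stood at 5.68, 8.09 and 10.22 against 9.21 to 10.82 (-2.30 ± 0.69, adjusted p = 0.0127). Slc45a2, a melanosome transporter, stood at 6.05, 9.12 and 10.93 against 10.45 to 11.07 (-2.14 ± 0.63, adjusted p = 0.0105). Dct, an enzyme of melanin synthesis, was lower in replicate 1 alone by more than 1, at 10.87, 13.89 and 14.18 against 14.06 to 14.28 (-1.19 ± 0.41, adjusted p = 0.0259). Mitf, the regulator of the pigment lineage, stood at 9.81, 11.53 and 12.41 against 12.11 to 12.53 (-1.10 ± 0.37, adjusted p = 0.0232). Sox10, its upstream partner, did not pass (-1.35 ± 0.53, adjusted p = 0.0566). Of 12 genes of dedifferentiated melanoma 6 rose and 1 fell (3 and 1 without replicate 2). They included Ngfr (0.66 ± 0.20 on 1 of 3 probe sets), Zeb1 (1.49 ± 0.43), which stromal cells also express, and the fall of Tfap2b, a neural crest factor (-1.86 ± 0.58).

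Of the engineered genes, Cdk4 was lower on average, while the probe sets of Hgf disagreed. Cdk4, the altered cell cycle kinase, stood at 10.00, 10.42 and 11.30 against 11.15, 11.39 and 11.57 (-0.81 ± 0.22, adjusted p = 0.00699), and all 3 of its probe sets fell. Hgf, the transgene, stood at 6.93, 10.62 and 11.45 against 10.77 to 12.06 (-1.62 ± 0.62, adjusted p = 0.0485, exact permutation p = 0.0788), and the difference was -0.25 ± 0.66 without replicate 1. Its other probe sets differed by -1.49 and 0.79. In limma's fit of every probe set on its own, only the rise of 0.79 passed (adjusted p = 0.00153). There the adjusted p was 0.0542 for -1.62 and 0.0977 for -1.49. Arrays do not separate transgene from host transcripts. Of 22 cell cycle genes 13 fell and 0 rose (8 without replicate 2), with list means of 8.66, 9.62 and 10.07 against 10.03 to 10.18. Cdk1, the mitotic kinase, stood at 9.40, 10.56 and 11.37 against 11.20 to 11.62 (-0.97 ± 0.31, adjusted p = 0.0162), and Rrm2, which makes DNA precursors, fell by 0.86 on the log2 scale (SE 0.24). Mki67, a marker of dividing cells, did not pass (-0.19 ± 0.31, adjusted p = 0.714). Of 17 oxidative phosphorylation genes 8 fell, by small steps such as -0.64 ± 0.17 for Ndufs1 and -0.59 ± 0.14 for Atp5o.

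Other large falls did not belong to the pigment list. Tlcd4, a membrane protein, lay below every IgG tumour in all 3, at 2.84, 6.14 and 6.90 against 7.32, 7.88 and 8.33 (-2.58 ± 0.36, adjusted p = 6.56e-06, and -1.35 ± 0.33 without replicate 1). Of its 4 probe sets 2 fell. Sucnr1, the succinate receptor, did the same, at 3.21, 4.67 and 5.53 against 6.19, 6.87 and 7.59 (-2.39 ± 0.38, adjusted p = 9.95e-05). Gpm6a, a neuronal membrane glycoprotein, stood at 2.89, 3.91 and 4.91 against 5.43 to 6.60 (-2.12 ± 0.41). Gsta4, a glutathione transferase, stood at 6.36, 7.33 and 10.13 against 9.74 to 11.56 (-2.67 ± 0.64, adjusted p = 0.00312), so replicate 3 overlapped the controls. Gsta2 (-2.31 ± 0.62) and Slc26a7, an anion transporter (-2.42 ± 0.64), had the same shape.

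Of 13 immediate early and heat shock genes 4 rose, 1 fell and 8 did not pass (2 rose and 0 fell without replicate 2). Over all genes 10.7% were called higher and 11.5% lower. Jun, an AP-1 subunit, stood at 10.99, 10.01 and 8.71 against 7.50, 8.22 and 8.88 (1.69 ± 0.49, adjusted p = 0.00985). Atf3, a partner of AP-1 in stressed cells, stood at 10.85, 10.13 and 9.04 against 8.19 to 8.94, and Egr2 at 9.56, 8.05 and 6.63 against 5.38 to 6.59. Neither overlapped (1.52 ± 0.36, adjusted p = 0.00262, and 1.98 ± 0.49, adjusted p = 0.00348). Prdm1, a factor of plasma cells, T cells and macrophages, stood at 8.94, 8.52 and 6.01 against 5.04 to 5.69 (2.43 ± 0.51, adjusted p = 0.00140). The plasma cell list as a whole had 2 of 11 genes higher, near the 10.7% over all genes. Hmox1, which breaks down haem, rose by 1.73 ± 0.54 (adjusted p = 0.0148). Serpinb2, an inhibitor of plasminogen activators, stood at 11.57, 6.63 and 9.43 against 3.68 to 9.99, so the controls themselves spanned a wide range (3.37 ± 1.15, adjusted p = 0.0265).

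Levels of muscle and fat genes differed between the 3. Skeletal muscle genes had a list mean of 6.88, 11.19 and 5.16 against 5.29 to 8.57 in IgG tumours, and all 16 lay above every IgG tumour in replicate 2. None of the 16 passed (median difference 1.98). Acta1, skeletal actin, stood at 9.48, 13.46 and 5.09 against 5.48, 5.85 and 11.34. Of the 5 genes with the largest excess of replicate 2 over the other 10 tumours, Pygm (4.05 above), Mybpc2 (3.64), Myh4 (3.49) and Atp2a1 (3.41) are muscle genes. Adipocyte genes had a list mean of 6.53, 7.48 and 5.76 against 5.87 to 8.09, with 0 of 9 called. Adipoq, the fat hormone adiponectin, stood at 7.49, 9.38 and 5.80 against 6.39, 9.13 and 11.46. Keratinocyte and skin genes had a mean of 4.53, 4.55 and 4.41 against 4.35 to 4.69, with 1 of 15 called, against 22.2% of all genes. The part of muscle, fat, fibroblast and pigment cell content in the immune differences above was not tested.

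Replicate 3, the tumour most like the controls, differed from them in few genes. Compared alone with the IgG tumours it gave 1 called gene in limma's fit, with 166 at an unadjusted p under 0.05, the lone tumour being assumed to vary like the other groups. Its largest excesses over the other 10 tumours were small. Camp lay 1.06 above the next tumour and Chil3, a chitinase-like protein of myeloid cells, 0.83 above it. It lay above all IgG tumours for 9 of 15 chemokine, 8 of 12 neutrophil, 7 of 13 MMP and inhibitor and 8 of 18 interferon gamma genes, against 7.29% of all genes. Other lists exceeded that share too, among them wound (6 of 16), macrophage (6 of 17) and type I interferon genes (5 of 16). For endothelial and MHC class II genes the counts were 0 of 14 and 0 of 9. It lay below all IgG tumours for 0 of 16 melanocyte genes, against 5.7% of all genes.

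Against the 10 study 3 responders, which share the treatment and the block of animal numbers, few genes differed. In the fit of all arrays 14 genes were higher in stabilized tumours (0.0769% of genes tested) and 6 lower (0.033%). Without replicate 1 there was 1, without replicate 2 there were 51 and 10, without replicate 3 there were 607 and 749, and in fits of study 3 or of these 2 groups alone there was 0, with 1420 genes at an unadjusted p under 0.05 in the fit of all arrays. Those called included Inhba (2.09 ± 0.37, adjusted p = 0.00101), Mmp10 (1.28 ± 0.22, adjusted p = 0.00101), Wnt5a (1.16 ± 0.23, adjusted p = 0.00764) and Il11 (1.18 ± 0.25, adjusted p = 0.0227). The highest responder stood at 6.69 for Inhba, 6.06 for Mmp10, 4.51 for Wnt5a and 5.71 for Il11, below replicate 1 in each. Replicate 3 also lay above the highest responder for Inhba (6.85) and Il11 (5.95), but not for Mmp10 and Wnt5a. Tlcd4 (-2.13 ± 0.35, adjusted p = 0.000746) and Gpm6a (-1.74 ± 0.40, adjusted p = 0.0408) were lower than in responders too. Of 3 more named after their values were seen, Plau, the urokinase that activates plasminogen, was higher (0.82 ± 0.19, adjusted p = 0.0408), as was Cd80, a ligand of CD28 and CTLA-4 (0.57 ± 0.13, adjusted p = 0.0429), and Me1, malic enzyme, was lower (-0.74 ± 0.17, adjusted p = 0.0408). Without replicate 1 the differences were 0.28 for Plau, 0.09 for Cd80, -0.39 for Me1, -0.9 for Tlcd4 and -1.24 for Gpm6a. For Plau, Cd80, Me1, Tlcd4 and Gpm6a, replicate 3 lay inside the responder range. For the T cell and PD-1 axis the values lay close. Cd8a differed from responders by -0.18 ± 0.51, Gzmb by -0.36 ± 0.72, Cd274 by 0.36 ± 0.28 and Pdcd1 by -0.39 ± 0.49, none past the threshold, and SEs of this size do not show that the groups are alike. Cd274 ranged from 8.73 to 10.01 in responders and from 7.98 to 8.53 in non-responders.

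Against the 9 study 3 non-responders, 2419 genes were higher (13.3% of genes tested) and 3269 lower (18.0%), and 1 without replicate 1. These comparisons share the stabilized tumours with the comparison against IgG. Mmp12 differed by 3.55 (adjusted p = 0.00189), Mmp13 by 2.76 (adjusted p = 0.00240), Cxcl2 by 2.98 (adjusted p = 0.00615) and Cd274 by 1.42 (adjusted p = 0.000829). Cd8a differed by 1.59 (adjusted p = 0.0172) and Pmel by -2.84 (adjusted p = 0.00331). Of these 6 genes, Mmp12 and Cd274 had no overlap. The highest non-responder stood at 8.02 for Mmp13, 10.09 for Cxcl2 and 6.43 for Cd8a, above stabilized replicate 3 in each, and Pmel in replicate 3 lay inside the non-responder range.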

How the data were processed

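Expression was measured on arrays of 45101 probe sets in 90 tumours. Per the submitters' processing notes, the authors used RMA and limma, versions not given in the sources used here, and the deposited values are on a log2 scale (2.19 to 14.84, array medians 5.71 to 5.90). They were used as deposited. Array data give no read depth, and the 3 stabilized tumours limit the precision. Nothing in the labels says that tumours came from separate donors, so p-values concern tumours and not donors. In limma's fit each gene's spread was pooled within all groups of the 90 arrays (78 residual degrees of freedom). The 3 stabilized tumours were thus assumed to vary like the rest. Their SD was 1.54 for Csf1r and 0.11 for Ccl7, against 0.59 and 0.58 in IgG tumours. Where the 3 varied more, the SE and p-value may understate it. PBS replicate 2 of study 3 had a 3′ to 5′ difference of 5.20, a sign of poor RNA, against 0.93 in the next highest array. It entered the pooled spread and the setting with the 3′ to 5′ covariate, but not the fit of the 2 groups alone. Its part in the results was not tested.

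Of the probe sets, 34958 had 1 gene symbol, 932 several and 9211 none. Each of 18194 genes was represented by the single-symbol probe set with the highest mean over all arrays, and 18032 matched RefSeq. Group means of 12 groups were fitted to all arrays with limma 3.58.1 (R 4.3.3, Python 3.11.15), with Benjamini-Hochberg adjustment over all genes and a threshold of 0.05. Errors after ± are the SE of that fit. Single genes also had a two-sided exact permutation test over the 165 splits of 11 tumours. The method was tested on simulated data.

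The genes named were the 10 largest rises and falls, the 10 largest without overlap, the 3 of each of 33 lists (442 of 478 entries measured) with the smallest p, the 5 largest excesses of each tumour, and a fixed set, or other list members. Not all that the rule gives are printed. Members and lists were chosen with earlier results of these data known. Alternatives changed the probe set rule, scaling, weights, filter, samples and threshold.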

Additional observations from a re-analysis of the deposited data

Results flagged for a closer look

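For 152 genes and lists the 8 IgG tumours were examined, and in 17 of them 1 value lay far from the other 7, by a gap over the whole range above Dixon's critical value of 0.526. Chance gives such a gap in about 1 of 20 sets. All of them lie among the controls, and groups of 3 were not examined in this way. IgG replicate 3 was highest for skeletal muscle genes, with a list mean of 8.57, Myh4 at 7.37, Acta1 at 11.34, Pygm at 6.18, Mybpc2 at 7.21 and Atp2a1 at 8.19. The same tumour was highest for the B cell list mean (6.30), the plasma cell and immunoglobulin list mean (7.97) and Trem2 (8.74). IgG replicate 6 was lowest for Mlana (9.21) and highest for Ptgs2 (7.03), Timp1 (10.55) and Wnt5a (4.61). IgG replicate 8 was lowest for Ccl2 (8.0), Ccl8 (10.36), Postn (8.59) and Zeb1 (6.31).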

How the results depend on the processing

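Against IgG, 1940 genes were higher and 2099 lower. Leaving out 1 tumour gave 1 to 2786 higher and 0 to 3450 lower, replicate 3 alone 1 and 0, and a threshold of 0.01 gave 895 and 766. Array weights, whose planned estimate did not converge, gave 5546 and 7541, and weights estimated gene by gene, added after the data were seen, gave 3597 and 4778. Lower genes numbered 1119 with study 3 arrays alone and 1026 with the 2 groups alone. Against responders (14 and 6), leaving out 1 stabilized tumour gave 1 to 607 and 0 to 749. Array weights gave 4958 and 6554, gene by gene 2267 and 3054, the 3′ to 5′ covariate 9 and 3, dim genes left out 1 and 1, a threshold of 0.01 gave 5 and 1, and study 3 alone, the 2 groups alone and replicate 3 alone each 0 and 0. Quantile normalization gave 23 higher, the mean of all probe sets 3 lower and median centring 1 lower. Against non-responders (2419 and 3269), the ranges were 1 to 3108 and 0 to 4407. Array weights gave 5365 and 8592, gene by gene 3901 and 6048, a threshold of 0.01 gave 1197 and 1138, and replicate 3 alone 0 and 0. Lower genes numbered 5025 with median centring (2069 higher), 2032 with study 3 arrays and 1969 with the 2 groups alone. The cause of these moves was not tested.

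With replicate 3 alone the sign turned for Hgf (0.16), Foxp3 (0.07), Mmp2 (-0.22), Mmp14 (-0.01), Cd4 (-0.07), Cxcl11 (0.01), Usp18 (0.16), Dct (0.00), Mitf (0.06), Sox10 (0.01), Slc45a2 (0.09), Gsta2 (0.35), Ngfr (-0.12), Tfap2b (0.02), Myh4 (-0.86), Acta1 (-1.48), Pygm (-0.13), Mybpc2 (-0.50) and Atp2a1 (-0.39). Array weights turned Mki67 (0.14), Cxcl1 (-0.02), Il11 (-0.36), Ereg (-0.07) and Chil3 (-0.14), and gene by gene Mki67 (0.06) and Il11 (-0.03). Foxp3 also turned with PBS tumours pooled with IgG (0.05). Leaving out 1 tumour, Foxp3 ranged from -0.08 to 0.09, turning without stabilized replicate 2 and without IgG replicates 2 (0.00) and 8 (0.01). Mki67 ranged from -0.37 to 0.02, turning without stabilized replicate 1. No paired analysis was possible because the replicate numbers follow accession order and pair no tumours.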
